A study of Mus musculus with 6 samples.

Results

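The genes described here are 10 regulators of oxidative metabolism, taken from the expression table by gene symbol: the PGC-1 coactivators Ppargc1a, Ppargc1b and Pprc1, the nuclear receptors Esrra, Esrrg, Ppara and Ppard, the transcription factors Nrf1 and Gabpa, and the mitochondrial factor Tfam. Each symbol matched 1 record, so 10 of the 55413 gene records used were members. RNA was measured in C2C12, a line of mouse muscle precursor cells that can form multinucleate myotubes, in 3 libraries labelled FHL3-KO and 3 libraries labelled WT. Every culture had grown in 10% fetal bovine serum and was then kept in 2% horse serum to differentiate for 4 days. FHL3 is a LIM-domain protein of striated muscle, and the series title ties it, through YY1, to fibres that depend on glycolysis. The members belong to the oxidative side of muscle metabolism. The labels name no clone, no method of knockout and no separate cultures, so an effect of a clone and one of its genotype cannot be told apart. The p-values reflect variation among these libraries, which may be technical.

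PGC-1 proteins do not bind DNA themselves. They dock on nuclear receptors such as the estrogen-related receptors (ERR) and the peroxisome proliferator-activated receptors (PPAR) and on the factors NRF1 and GABP, and recruit chromatin enzymes to genes of respiration and fatty acid oxidation. NRF1 and GABP in turn act on nuclear genes of the respiratory chain and on Tfam, whose protein packages mitochondrial DNA and starts its transcription. In skeletal muscle this network is known for its part in the slow, oxidative fibre programme and in the response to endurance exercise.

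The targeted gene did not separate the groups in the direction of the label. Fhl3 was at 57.2, 53.5 and 58.9 FPKM in the FHL3-KO-labelled libraries, against 27.8, 30.0 and 33.7 FPKM in WT (FPKM are fragments per kilobase of transcript, scaled to the total of the library). Its log2 change was 0.87 (SE 0.092, limma adjusted p = 0.000547), which goes against a loss of the transcript, and the table does not resolve the exons of a gene. All directions below are therefore those of the libraries with that label relative to WT. Of 8 myotube markers 7 rose, and their summed level was 11778.3 to 12614.1 FPKM in the FHL3-KO-labelled libraries against 5525.0 to 6295.2 FPKM in WT. Of 4 tested markers of undifferentiated myoblasts 2 rose and 1 fell, and of 6 cell cycle markers 2 rose and 2 fell. The 14 hepatocyte markers summed to 145.7 FPKM in WT replicate 1, with Alb at 56.0 FPKM, and to at most 0.207 FPKM in every other library. Among 6 cardiomyocyte markers, some of which myotubes share, 2 rose and 1 fell (sums of 2236.9 to 2639.1 FPKM in the FHL3-KO-labelled libraries against 749.8 to 1069.7 FPKM in WT). Myl4 alone made up nearly all of that sum, at 2470.4 ± 221 FPKM in the FHL3-KO-labelled libraries and 897.4 ± 162 FPKM in WT, while Nppb fell and Tnni3 was not called. Among 8 fibroblast markers 1 rose and 3 fell (287.6 to 324.6 FPKM in the FHL3-KO-labelled libraries against 559.8 to 627.3 FPKM in WT). No macrophage or endothelial marker reached the level needed for a test. The FPKM of a library summed to between 424987 and 494176, and its absolute depth is unknown.

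Of the 10 regulators, Ppard rose and Gabpa fell, while the most studied member, Ppargc1a, did not exceed 0.284 FPKM in any library. A gene was tested where its mean reached 1 FPKM in at least 1 group, which 7 members did and Ppargc1a, Esrrg and Ppara did not. Among the 7 tested members 1 was called higher and 1 lower at a limma adjusted p under 0.05, or 28.6%, whereas 40.8% of all 12528 tested genes were called, 19.7% higher and 21.2% lower. For 4 of the 7 the ranges of the groups were apart, with 2 higher and 2 lower, against 53.8% of all tested genes, 26.9% higher and 26.9% lower. The median log2 change of the 7 was 0.21 and that of all tested genes -0.01. In bulk RNA a change in cell makeup and a change in RNA per cell cannot be told apart. Fold changes are given as log2 changes in FPKM + 1, a scale that makes the changes of weakly expressed genes look smaller.

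**Figure D1:**
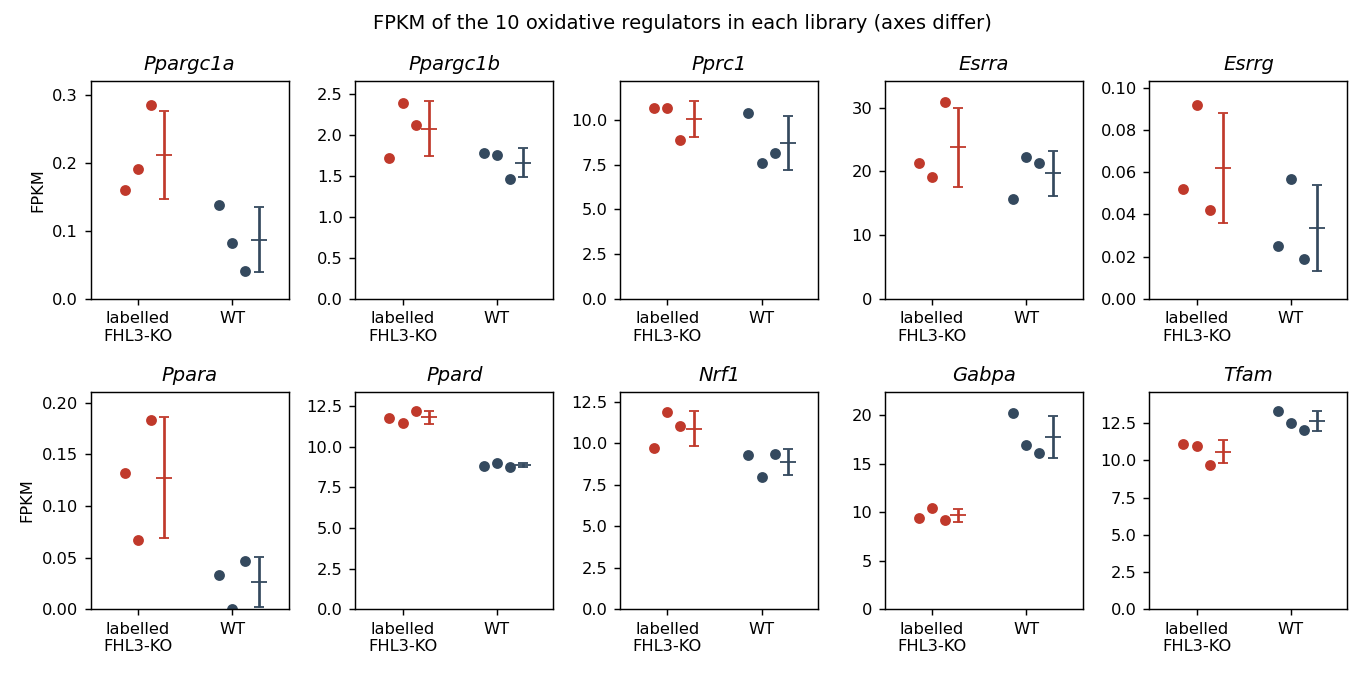
FPKM of each member (vertical axis, a separate scale from 0 in each panel) in the 3 libraries labelled FHL3-KO (red) and the 3 WT libraries (dark); points are replicates 1 to 3 from left to right, and the bar beside them is the mean ± SD. Gabpa and Ppard are separated between the groups, Gabpa at 9.20 to 10.4 FPKM with the FHL3-KO label against 16.1 to 20.2 FPKM in WT and Ppard at 11.5 to 12.2 FPKM with that label against 8.78 to 9.02 FPKM in WT, while Ppargc1a, Esrrg and Ppara reach at most 0.284 FPKM.

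Levels per length differed widely among the members. Esrra had the highest mean in both groups, at 23.8 ± 6.3 FPKM in the FHL3-KO-labelled libraries and 19.7 ± 3.6 FPKM in WT (SD, n = 3 each), above 72.1% of tested genes by its mean over all libraries. Ppard, Nrf1, Tfam, Pprc1 and Gabpa followed in the FHL3-KO-labelled libraries, between 9.70 and 11.8 FPKM, and the ranges of each neighbouring pair in that order overlapped. Ppargc1b came next at 2.08 ± 0.34 FPKM in the FHL3-KO-labelled libraries and 1.67 ± 0.18 FPKM in WT, and the 3 untested members came last. The ranges of Ppargc1b did not overlap those of either neighbour in either group. The order differed between the groups mainly through Gabpa. It was sixth in the FHL3-KO-labelled libraries, and second in WT, where its range overlapped that of Esrra and lay above that of Tfam.

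Gabpa encodes the DNA-binding subunit of GABP, an ETS-family factor that binds together with a beta subunit. The gene (ENSMUSG00000008976) lies on chromosome 16 from 84834925 to 84863779 on the plus strand of GRCm38. It stood at 9.46, 10.4 and 9.20 FPKM in the FHL3-KO-labelled libraries, against 20.2, 17.0 and 16.1 FPKM in WT. Every library labelled FHL3-KO was below every WT library, and WT replicate 1 was the highest. The means were 9.70 ± 0.65 FPKM in the FHL3-KO-labelled libraries and 17.8 ± 2.2 FPKM in WT, a log2 change of -0.81 (SE 0.11, 95% interval -1.06 to -0.56, limma adjusted p = 0.00144), which ranked 842 of 12528 genes by p. Without WT replicate 1 the change was -0.71 (limma adjusted p = 0.00396).

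The fall of Gabpa was smaller once the trends with exon length and GC content were removed. Its annotated transcripts hold 41.9% G and C, and the 1313 tested genes under 42.5% had a median log2 change of -0.50, with 53.8% called lower and 3.66% called higher. With each library's trend with exon length and GC content removed, the change of Gabpa was -0.39 (95% interval -0.55 to -0.24, limma adjusted p = 0.00337). The call thus held at a smaller size. The cause of the GC trend was not tested.

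The promoter window of Gabpa is shown because 2 genes start within it. Gabpa and 1 of the 2 annotated starts of Atp5j, which encodes a subunit of ATP synthase, lie 148 bases apart on opposite strands in the RefSeq annotation of GRCm38.p6. The window chr16:84834874-84835173, plus strand, runs from 250 bases before the Gabpa start to 50 after it. That RefSeq start, at 84835124, lies inside the gene as placed above by GENCODE, and so do the marked letters. Positions before a start, here and for the other windows, hold for the RefSeq start only. Capitals mark the letters of 3 motifs, searched on both strands: CTTCCGG, the reverse of the ETS core CCGGAAG bound by GABP; CGCCATCTT, the reverse of AAGATGGCG bound by YY1; and CGCATGCG, which holds the NRF1 core GCATGCG on both strands, overlapping.
Gabpa: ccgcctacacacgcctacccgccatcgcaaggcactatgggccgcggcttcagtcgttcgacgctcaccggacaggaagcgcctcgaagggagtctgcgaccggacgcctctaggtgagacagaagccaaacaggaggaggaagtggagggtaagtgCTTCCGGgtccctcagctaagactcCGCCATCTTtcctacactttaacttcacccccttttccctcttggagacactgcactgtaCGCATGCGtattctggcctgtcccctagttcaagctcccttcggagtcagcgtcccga

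The ETS letters begin 93 bases, the YY1 letters 68 bases and the NRF1 letters 8 bases before the Gabpa start. Among all 32851 windows of this length the ETS core was found in 8.86%, the YY1 letters in 1.40% and the NRF1 core in 3.58%. A match of letters is a description of the sequence and shows no binding. Atp5j was at 140.9, 116.1 and 159.3 FPKM in the FHL3-KO-labelled libraries, against 109.9, 128.0 and 161.9 FPKM in WT. The Atp5j ranges overlapped, with a log2 change of 0.06 (95% interval -0.32 to 0.45, limma adjusted p = 0.778). YY1 itself, from Yy1, was at 14.8 ± 1.4 FPKM in the FHL3-KO-labelled libraries and 14.3 ± 1.1 FPKM in WT. In GENCODE Gabpa and Atp5j overlap over 701 bases, and 397 exon bases, 6.98% of the exon length of Gabpa, are shared. The sources used here do not say whether reads were counted by strand, so the division of reads there is uncertain. The same holds for 2.82% of the exon length of Pprc1, shared with Ldb1, and 1.66% of that of Esrra, shared with Trmt112.

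Of the genes for the beta partners of GABP, 1 was called. Gabpb2 was at 2.46 ± 0.28 FPKM in the FHL3-KO-labelled libraries and 4.17 ± 0.77 FPKM in WT, a log2 change of -0.57 (limma adjusted p = 0.0163), and this call ended under 7 of 17 alternatives, among them removal of the length and GC trend (-0.23, adjusted p = 0.183) and the fits without replicate 3 labelled FHL3-KO, WT replicate 1 or WT replicate 2 (adjusted p at most 0.256). Gabpb1 was at 6.51 ± 0.40 FPKM in the FHL3-KO-labelled libraries and 5.97 ± 0.82 FPKM in WT and was not called (log2 change 0.11, 95% interval -0.16 to 0.38). Of the summed FPKM of the 3 subunit genes, Gabpa held 49.3%, 54.3% and 52.2% in the FHL3-KO-labelled libraries, against 63.8%, 63.0% and 64.1% in WT. The groups were apart by 11.7 percentage points on average, lower in the FHL3-KO-labelled libraries. By exact permutation, two-sided, p was 0.1, the lowest value possible with 3 against 3, and 0.133 after adjustment over the 4 family shares tested. With the length and GC trend removed the difference was -10.7 points.

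**Figure D2:**
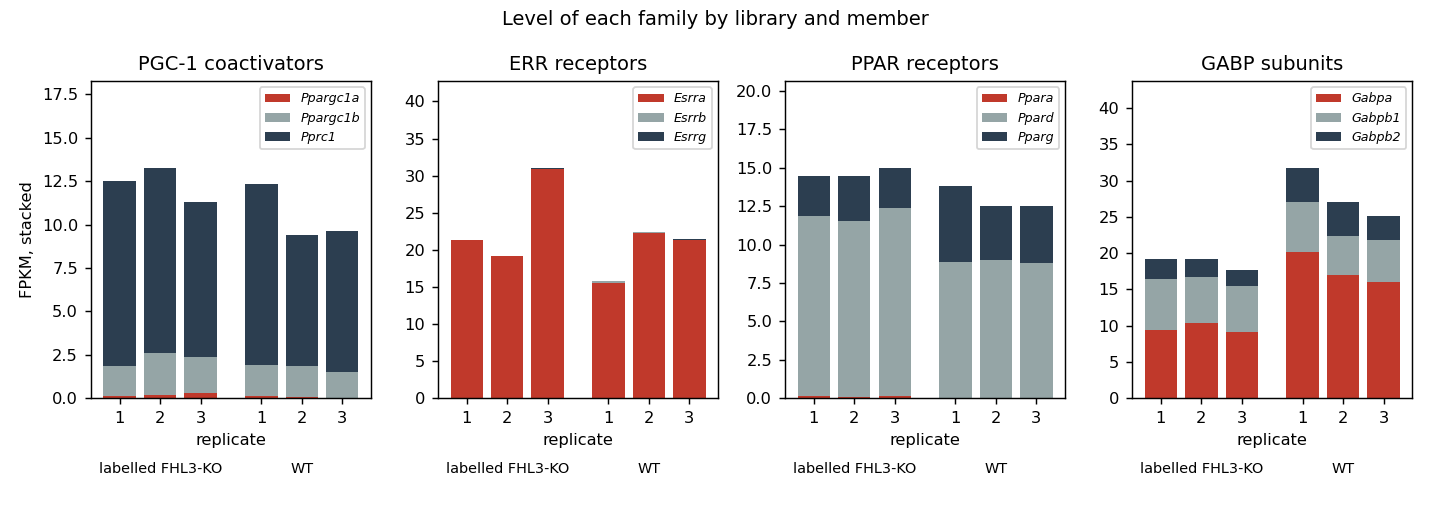
Stacked FPKM of the PGC-1 coactivators, the ERR receptors, the PPAR receptors and the GABP subunits (vertical axes from 0, scales differ) in each library, with the replicates labelled FHL3-KO left of the WT replicates. Gabpa takes 49.3% to 54.3% of its family in the FHL3-KO-labelled libraries against 63.0% to 64.1% in WT, and Ppard 79.5% to 81.8% of its own in the FHL3-KO-labelled libraries against 64.0% to 72.0% in WT.

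Nrf1 (chr6:30047988-30153458, plus strand) encodes nuclear respiratory factor 1, which binds promoters of respiratory chain genes. It was at 9.74, 11.9 and 11.01 FPKM in the FHL3-KO-labelled libraries, against 9.30, 7.94 and 9.34 FPKM in WT. The groups did not overlap, by a margin of less than 1 FPKM, and the log2 change of 0.27 (95% interval 0.01 to 0.52) did not pass the test (limma adjusted p = 0.0843). The exons of Nrf1 span 10282 bases, and its value moved with the treatment of length. The 2048 tested genes of 8000 bases or more had a median log2 change of -0.24. With the length trend removed the change of Nrf1 was 0.51 (limma adjusted p = 0.00763), with length and GC removed 0.33 (adjusted p = 0.0244), and after quantile normalization 0.33 (adjusted p = 0.0368). Those treatments of the values called it higher, and scaling to the same sum gave 0.17 (adjusted p = 0.311).

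Tfam (chr10:71225464-71238280, minus strand) encodes the factor that packages mitochondrial DNA and starts its transcription. It was at 11.11, 11 and 9.69 FPKM in the FHL3-KO-labelled libraries, against 13.35, 12.52 and 12.02 FPKM in WT. The groups did not overlap, and the log2 change of -0.23 (95% interval -0.45 to -0.02) missed the threshold after adjustment (limma adjusted p = 0.0769). The GC content of its transcripts is 44.4%, and the 1400 tested genes between 42.5% and 45% had a median of -0.30. With the length and GC trend removed the change was 0.00 to 2 decimals (95% interval -0.16 to 0.16). Transcripts of the mitochondrial genome, which Tfam serves, took 3.98% to 6.18% of the FPKM sum in the FHL3-KO-labelled libraries and 8.56% to 8.82% in WT. This share was not corrected for length or GC content, and a link to Tfam was not tested.

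The windows of Tfam and Esrra are shown as textbook cases of the same network, since GABP and NRF1 act on Tfam and Esrra is a gene that PGC-1alpha induces. The Tfam window is chr10:71237995-71238294 and the Esrra window chr19:6921759-6922058, both read on the minus strand. Capitals mark the ETS core CCGGAAG in Tfam, 47 bases before the start, and the NRF1 core GCATGCG in Esrra, 34 bases before the start. The Tfam window held no NRF1 core, and the Esrra window held no ETS core.
Tfam: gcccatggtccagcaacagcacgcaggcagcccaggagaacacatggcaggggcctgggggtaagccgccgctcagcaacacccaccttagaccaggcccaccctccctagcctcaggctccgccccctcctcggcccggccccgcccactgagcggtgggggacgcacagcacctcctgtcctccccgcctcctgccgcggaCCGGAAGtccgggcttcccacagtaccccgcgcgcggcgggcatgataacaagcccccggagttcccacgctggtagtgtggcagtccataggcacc
Esrra: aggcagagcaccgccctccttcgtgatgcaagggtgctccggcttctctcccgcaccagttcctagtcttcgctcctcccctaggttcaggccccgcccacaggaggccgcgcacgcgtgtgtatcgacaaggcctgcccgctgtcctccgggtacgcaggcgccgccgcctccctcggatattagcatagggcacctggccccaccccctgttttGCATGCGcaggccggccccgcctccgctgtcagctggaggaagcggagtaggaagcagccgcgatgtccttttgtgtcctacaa

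Windows of 9 of the 10 members were searched, 13 in all. Chromosome 18 was left out of this search, and with it Ppargc1b. The other motifs searched were the ERR element TCAAGGTCA, found in 0.423% of all windows, the receptor hexamer AGGTCA, found in 16.3%, and the PPAR motif, which is AGGTCA, any 1 base and AGGTCA again, found in 0.0396%. The ERR element contains AGGTCA, so a match to it is also a match to the hexamer. The Ppard window held none of the 6 motifs, and neither did that of Ppargc1a nor the 2 of Nrf1. The NRF1 letters were also present in the Ppara window and in 1 of 4 windows of Esrrg, and AGGTCA in that of Pprc1. The RefSeq starts of the Ppara and Pprc1 windows, at 85735776 and 46056539, lie inside these genes as placed by GENCODE. None of the 13 windows searched held the ERR element or the PPAR motif.

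Ppard encodes PPARdelta, the PPAR that is most abundant in skeletal muscle and responds to fatty acids. The gene (ENSMUSG00000002250) lies on chromosome 17 from 28232700 to 28301474 on the plus strand. It was at 11.7, 11.5 and 12.2 FPKM in the FHL3-KO-labelled libraries, against 8.83, 9.02 and 8.78 FPKM in WT. The 2 groups were tight and did not overlap, with means of 11.8 ± 0.38 FPKM in the FHL3-KO-labelled libraries and 8.88 ± 0.13 FPKM in WT. Its log2 change was 0.37 (SE 0.080, 95% interval 0.19 to 0.56, limma adjusted p = 0.00902), and 0.30 with the length and GC trend removed (adjusted p = 0.00781). The call ended when libraries were scaled to the same FPKM sum (0.28, adjusted p = 0.0551), a step that moved the median of all tested genes to -0.10.

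The other PPAR genes were expressed at lower levels than Ppard. Ppara (chr15:85734983-85802819, plus strand), the PPAR of liver, heart and oxidative muscle, was listed at 0.132, 0.0667 and 0.183 FPKM in the FHL3-KO-labelled libraries, against 0.0332, 0 and 0.0466 FPKM in WT. These values are under the filter for testing. Whether the hepatocyte transcripts of WT replicate 1 contributed to its Ppara value was not tested. Pparg, the PPAR of adipocytes, was at 2.58, 2.90 and 2.54 FPKM in the FHL3-KO-labelled libraries, against 4.94, 3.51 and 3.69 FPKM in WT. Its log2 change was -0.45 (limma adjusted p = 0.0323), a call that ended under 7 of 17 alternatives, including the fits without replicate 1 or 3 labelled FHL3-KO and without WT replicate 1 or 2 (adjusted p at most 0.0938). Of 10 adipocyte markers 1 was tested and 6 were listed at 0 in all libraries, among them Adipoq and Plin1. The summed level of the 10 was 4.325 to 4.860 FPKM in the FHL3-KO-labelled libraries against 1.422 to 1.995 FPKM in WT, and Cebpa, the tested marker, made up nearly all of it at 4.505 ± 0.31 FPKM in the FHL3-KO-labelled libraries and 1.574 ± 0.17 FPKM in WT. Fabp4 was lower, at a mean of 0.0222 FPKM in the FHL3-KO-labelled libraries and 0.102 FPKM in WT, and was not tested. Ppard held 80.8% ± 1.2 of the summed PPAR level in the FHL3-KO-labelled libraries and 68.7% ± 4.2 in WT (exact permutation p = 0.1, adjusted 0.133, n = 3 each).

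Esrra (chr19:6910977-6921813, minus strand) encodes ERRalpha, the main partner of PGC-1alpha at respiratory genes. It was at 21.3, 19.1 and 30.9 FPKM in the FHL3-KO-labelled libraries, against 15.6, 22.2 and 21.3 FPKM in WT. The groups overlapped, and the highest and lowest values came from replicate 3 labelled FHL3-KO and WT replicate 1. The log2 change was 0.25 (95% interval -0.21 to 0.71, limma adjusted p = 0.346), 0.05 without replicate 3 labelled FHL3-KO, 0.09 without WT replicate 1, 0.38 without replicate 2 labelled FHL3-KO, and 0.07 with the length and GC trend removed. The interval allows a change in either direction. Esrrg (chr1:187608791-188214885, plus strand), the ERR of highly oxidative muscle, was listed at 0.0522, 0.0917 and 0.0423 FPKM in the FHL3-KO-labelled libraries, against 0.0252, 0.0569 and 0.0190 FPKM in WT. Esrra thus made up nearly all of the ERR level, and Esrrg took 0.286% ± 0.17 in the FHL3-KO-labelled libraries and 0.167% ± 0.083 in WT (exact permutation p = 0.5, n = 3 each). That difference of 0.119 points was 0.0233 without replicate 2 labelled FHL3-KO, 0.194 without replicate 3 labelled FHL3-KO and 0.0797 without WT replicate 3.

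Of the coactivators, Pprc1 was the most abundant and Ppargc1a the least. Pprc1 (chr19:46044886-46072915, plus strand), which encodes the growth-responsive PGC-1-related coactivator, was at 10.6, 10.7 and 8.90 FPKM in the FHL3-KO-labelled libraries, against 10.4, 7.57 and 8.16 FPKM in WT. Its groups overlapped (log2 change 0.19, 95% interval -0.12 to 0.51, limma adjusted p = 0.273), and the change was 0.11 without WT replicate 2 and 0.32 without WT replicate 1. Ppargc1b, which encodes PGC-1beta, was at 1.73, 2.39 and 2.12 FPKM in the FHL3-KO-labelled libraries, against 1.78, 1.755 and 1.46 FPKM in WT. These overlapped too (log2 change 0.21, 95% interval -0.10 to 0.51, limma adjusted p = 0.237), and with the length and GC trend removed the change of Ppargc1b was 0.02. Without replicate 2 labelled FHL3-KO it was 0.13.

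Ppargc1a (chr5:51454250-51567726, minus strand) encodes PGC-1alpha, the exercise-induced coactivator of slow muscle. It was listed at 0.160, 0.190 and 0.284 FPKM in the FHL3-KO-labelled libraries, against 0.137, 0.0826 and 0.0413 FPKM in WT. All 3 libraries labelled FHL3-KO were above all 3 WT libraries, at levels under the filter for testing. In a fit without a filter the log2 change was 0.16 and was not called (limma adjusted p = 0.118), nor were those of Ppara (0.13, adjusted p = 0.103) and Esrrg (0.04, adjusted p = 0.413). Ppargc1a took 1.74% ± 0.67 of the PGC-1 family level in the FHL3-KO-labelled libraries and 0.806% ± 0.35 in WT (exact permutation p = 0.1, adjusted 0.133, n = 3 each). This difference of 0.937 points was 0.551 without replicate 3 labelled FHL3-KO. The table holds 1 value per gene and does not resolve the isoforms of PGC-1alpha.

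**Figure D3:**
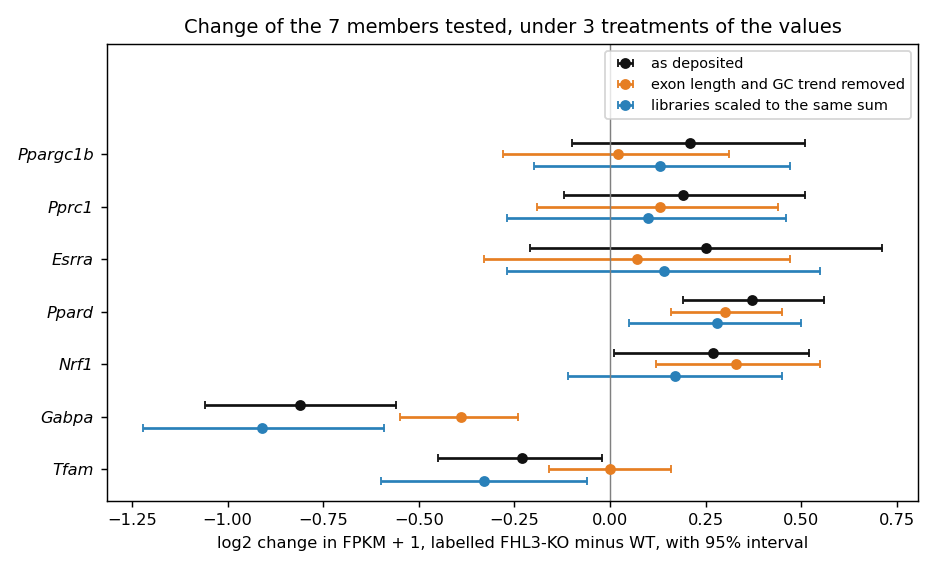
Log2 change in FPKM + 1 (horizontal axis, libraries labelled FHL3-KO minus WT) of the 7 tested members with 95% intervals from limma, for the values as deposited (black), with each library's exon length and GC trend removed (orange) and with libraries scaled to the same sum (blue). Gabpa is below 0 under all 3, at -0.81, -0.39 and -0.91, Ppard is above 0 at 0.37, 0.30 and 0.28, and Tfam lies at -0.23, 0.00 and -0.33.

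The sign of the change of the 7 members went with their GC content. The 2 members of lowest GC, Gabpa and Tfam, had the 2 negative values, and the 5 members of 50.9% to 58.4% G and C had positive ones. Over all tested genes the median log2 change climbed with GC content, from -0.50 under 42.5% to 0.19 at 57.5% and above. In that highest class, which held Ppargc1b, Esrra and Ppard, 31.5% of genes were called higher and 9.15% lower. The values with this trend removed, given with the members above, assume a smooth trend within each library. With length and GC removed Gabpa was at -0.39, Ppard at 0.30 and Nrf1 at 0.33, and each was called. Pprc1, Esrra, Ppargc1b and Tfam were not.

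**Figure D4:**
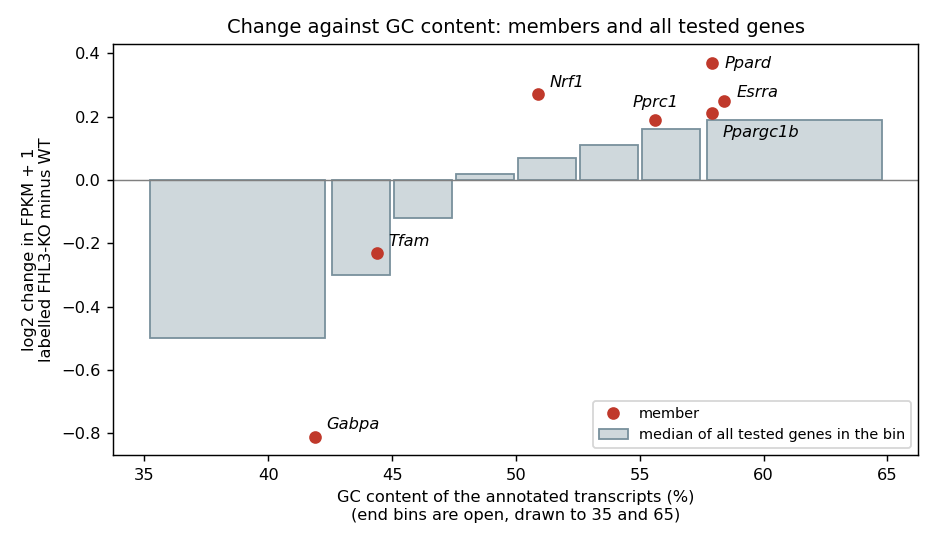
Log2 change in FPKM + 1 (vertical axis, libraries labelled FHL3-KO minus WT) against the GC content of the annotated transcripts in percent (horizontal axis); bars are medians of all tested genes per GC class and red points the 7 tested members. The bars run from -0.50 to 0.19, and Gabpa at -0.81 lies below the bar of its class while Ppard at 0.37 lies above its own.

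Genes upstream of PGC-1alpha moved both ways. Of 24 tested kinases, cofactors and transcription factors that activate it, 7 rose and 4 fell, with a median log2 change of 0.14. With the length and GC trend removed 10 were called higher and 2 lower. Without replicate 1 labelled FHL3-KO or without WT replicate 2 these counts were 4 and 2, and without WT replicate 3 they were 4 and 4. Over all tested genes 19.7% were called higher and 21.2% lower, the shares beside which this list and the later ones stand. Prkag3, the muscle-specific gamma subunit of AMP-activated kinase, rose to 30.0 ± 1.5 FPKM, against 17.0 ± 0.63 FPKM in WT (limma adjusted p = 0.000443). Mef2d, a muscle factor that binds the Ppargc1a promoter, rose to 85.1 ± 13 FPKM, against 55.6 ± 3.7 FPKM in WT (adjusted p = 0.00660). Creb1, the cyclic AMP response factor, was at 2.46 ± 0.11 FPKM in the FHL3-KO-labelled libraries and 4.42 ± 0.83 FPKM in WT and Ppp3ca, the calcineurin catalytic subunit, at 9.30 ± 0.90 FPKM in the FHL3-KO-labelled libraries and 13.6 ± 1.3 FPKM in WT. The falls of Creb1 and Ppp3ca (limma adjusted p = 0.00907 and 0.00844) were no longer called with the length and GC trend removed (adjusted p = 0.379 and 0.0680). Prkaa1, a catalytic subunit of the same kinase named after its value was seen, fell to 16.3 ± 2.2 FPKM, against 23.9 ± 3.8 FPKM in WT (adjusted p = 0.0221), a call that ended with the length and GC trend removed and without replicate 1 or 3 labelled FHL3-KO or WT replicate 1 or 2 (adjusted p at most 0.406).

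Partners and repressors of the receptors were likewise divided. Of 16 tested corepressors and inhibitors 3 rose and 3 fell (median 0.10), and 0 rose and 2 fell without WT replicate 2. Ncor1, a corepressor of nuclear receptors, fell to 11.5 ± 1.6 FPKM, against 19.5 ± 4.2 FPKM in WT (limma adjusted p = 0.0117), and Fnip1, a folliculin partner that restrains oxidative fibre genes, to 5.07 ± 1.4 FPKM, against 10.1 ± 1.8 FPKM in WT (adjusted p = 0.00962). With the length and GC trend removed the change of Fnip1 was -0.36 in place of -0.88 and remained called (adjusted p = 0.0220). Kat2a of the same list rose to 19.17 ± 1.7 FPKM, against 14.74 ± 0.16 FPKM in WT (limma adjusted p = 0.0154). Flcn, the folliculin gene, rose to 19.75 ± 0.32 FPKM, against 16.03 ± 1.1 FPKM in WT (adjusted p = 0.0265). The calls of Kat2a and Flcn ended under 4 and 8 of 18 alternatives, among them removal of the length and GC trend. Of 11 tested coactivator partners 2 rose and 0 fell (median -0.07), led by Smarcd1, a subunit of the SWI/SNF remodelling complex, at 9.62 ± 0.36 FPKM in the FHL3-KO-labelled libraries and 6.41 ± 0.26 FPKM in WT (limma adjusted p = 0.00343). The other call was Kat5, a histone acetyltransferase gene (adjusted p = 0.0417), which ended under 11 of 18 alternatives, and 1 gene of the list was called without any single library other than replicate 1 labelled FHL3-KO. Of 8 tested receptor and factor partners 1 rose and 2 fell (median 0.12), and the falls were those of Gabpb2 and Pparg. Thra, a thyroid hormone receptor, was the rise at 16.8 ± 1.9 FPKM in the FHL3-KO-labelled libraries and 12.9 ± 0.24 FPKM in WT (adjusted p = 0.0255), and that call ended under 9 of 18 alternatives, including each fit that left out a library other than replicate 2 labelled FHL3-KO. None of the 3 partner calls was made without replicate 3 labelled FHL3-KO, without WT replicate 1 or without WT replicate 2.

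Genes of mitochondrial DNA transcription and replication, the processes Tfam serves, were mostly not called. Of 18 tested genes 0 rose and 3 fell (median -0.03). Tfb2m, which opens the mitochondrial promoter together with TFAM, fell to 9.17 ± 0.86 FPKM, against 13.1 ± 0.74 FPKM in WT (log2 change -0.47, limma adjusted p = 0.00813). With the length and GC trend removed it was -0.23 (adjusted p = 0.0288), and the call ended when a replicate block was added to that correction. The terminator-family genes Mterf2 and Mterf1a were at log2 changes of -0.50 and -0.60 (limma adjusted p = 0.0173 and 0.0485), calls that ended under 4 of 18 and 9 of 17 alternatives. The call of Mterf2 ended without replicate 1 or 3 labelled FHL3-KO, and that of Mterf1a without replicate 2 or 3 labelled FHL3-KO or WT replicate 1 or 2. With the length and GC trend removed 2 genes of the list were called higher and 4 lower.

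Known PPAR targets did not move together. Of 23 tested targets 8 rose and 6 fell, with a median log2 change of 0.08. Without WT replicate 1, the library with hepatocyte transcripts, 7 rose and 3 fell, and without replicate 1 labelled FHL3-KO 6 rose and 3 fell. Ucp2, a mitochondrial carrier, rose to 27.3 ± 1.2 FPKM, against 5.18 ± 0.17 FPKM in WT (limma adjusted p = 7.29e-06), the hormone gene Fgf21 to 12.7 ± 1.3 FPKM, against 3.32 ± 0.63 FPKM in WT (adjusted p = 0.000197), and the beta-oxidation thiolase Acaa2 to 56.3 ± 1.2 FPKM, against 31.4 ± 1.3 FPKM in WT (adjusted p = 0.000245). Lpl, the lipoprotein lipase, fell to 3.24 ± 0.37 FPKM, against 14.5 ± 2.0 FPKM in WT (adjusted p = 9.88e-05). Angptl4 and Pdk4, PPARdelta targets of muscle named after their values were seen, were lower too, Angptl4 at 3.80 ± 0.64 FPKM in the FHL3-KO-labelled libraries and 6.72 ± 0.38 FPKM in WT, and Pdk4 at 3.89 ± 0.41 FPKM in the FHL3-KO-labelled libraries and 5.76 ± 1.2 FPKM in WT (limma adjusted p = 0.00417 and 0.0477). The call of Angptl4 held under all 18 alternatives, and that of Pdk4 ended under 7, including the fits without replicate 1 or 3 labelled FHL3-KO and without WT replicate 1 or 2 (adjusted p at most 0.130).

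More targets of ERR and PGC-1alpha rose than fell. Of 29 tested targets 12 rose and 2 fell, beside 19.7% and 21.2% of all tested genes. Their median log2 change was 0.24. Without replicate 1 labelled FHL3-KO 8 rose and 1 fell, and without WT replicate 2 8 rose and 2 fell. The slow troponin Tnni1 rose to 2310.1 ± 58 FPKM, against 1038.9 ± 56 FPKM in WT (limma adjusted p = 0.000302), the irisin precursor gene Fndc5 to 5.36 ± 1.3 FPKM, against 1.02 ± 0.11 FPKM in WT (adjusted p = 0.000422), and Uqcrfs1 of complex III to 130.4 ± 7.8 FPKM, against 84.1 ± 1.7 FPKM in WT (adjusted p = 0.000985). Ldhb, the lactate dehydrogenase chain of oxidative tissue, fell to 3.60 ± 0.80 FPKM, against 12.5 ± 0.10 FPKM in WT (adjusted p = 0.000277). Several of these are also genes of differentiated muscle, and 7 of the 8 myotube markers rose in the same libraries. Markers of undifferentiated myoblasts and of the cell cycle moved both ways there. The part of differentiation in these values was not tested.

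Targets of NRF1 and GABP were called in 1 direction. Of 24 tested targets 9 rose and 0 fell (median 0.25), and over the alternatives 8 to 12 rose and 0 fell, while Gabpa itself fell. Tomm20, a receptor of the outer mitochondrial membrane, rose to 34.1 ± 2.0 FPKM, against 20.3 ± 1.0 FPKM in WT (limma adjusted p = 0.000729). Tomm34, a co-chaperone of protein import, rose to 17.4 ± 1.5 FPKM, against 10.7 ± 0.48 FPKM in WT (adjusted p = 0.00185), Sdhc of complex II to 53.7 ± 1.6 FPKM, against 36.3 ± 2.5 FPKM in WT (adjusted p = 0.00195), and Cox5a of complex IV to 199.2 ± 17 FPKM, against 124.2 ± 12 FPKM in WT (adjusted p = 0.00265). Atp5j is in this list and was not called. The lists describe counts only, and all of them stand beside the 19.7% of all tested genes called higher and the 21.2% called lower.

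**Figure D5:**
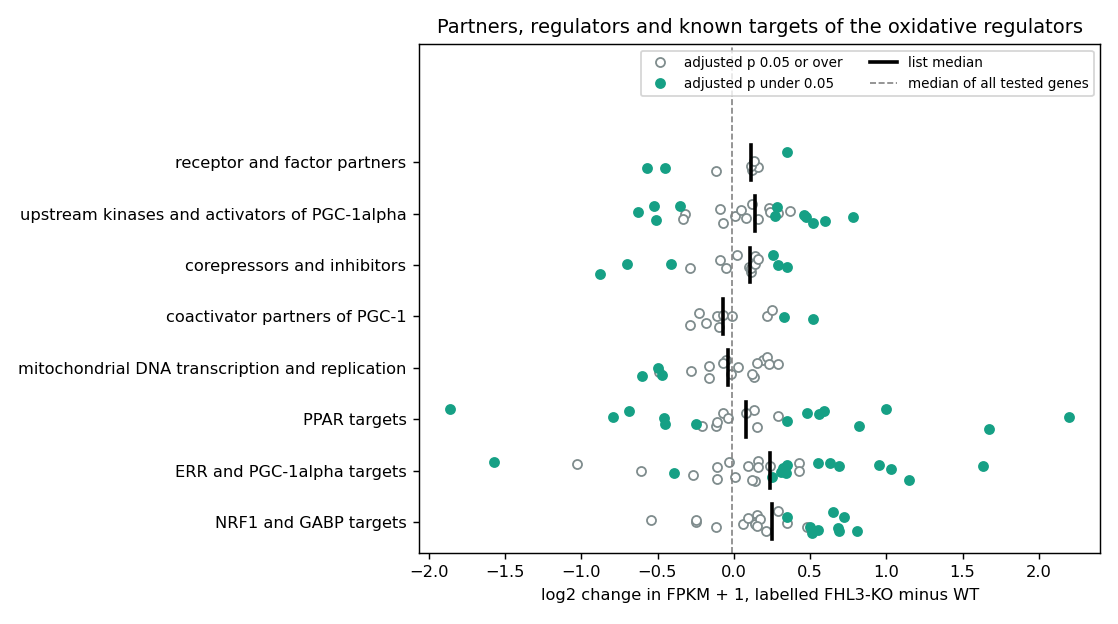
Log2 change in FPKM + 1 (horizontal axis, libraries labelled FHL3-KO minus WT) of each tested gene in 8 lists of partners, regulators, mitochondrial DNA factors and known targets (rows); filled points passed a limma adjusted p under 0.05, black bars are list medians and the dashed line is the median of all tested genes at -0.01. All 9 filled points of the NRF1 and GABP targets lie above 0, while those of the PPAR targets lie on both sides, 8 above and 6 below.

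The genes whose pattern over the 6 libraries was most like that of the 2 called members were found among 8525 named genes whose mean was 5 FPKM or more in either group. For Gabpa they were Dnajc3, Ccdc47 and Smc1a, with Pearson correlations of log2 values of 0.9999, 0.9992 and 0.9988. Dnajc3 was at 9.07, 10.1 and 8.71 FPKM in the FHL3-KO-labelled libraries, against 23.5, 18.9 and 17.7 FPKM in WT, with the same order of libraries as Gabpa. For Ppard they were Sec14l1, Dexi and Nudt14, at 0.9998, 0.9993 and 0.9991. With 6 libraries in 2 groups such values are common: 1511 genes exceeded 0.9 with Gabpa and 1502 with Ppard, so the correlations describe likeness only.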

How the data were processed

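The values in the deposited table were taken as FPKM because of their range and sums, since its header names only genes and samples. The submitters' processing notes list mm10, DESeq2 1.28.1, featureCounts 2.0.1, HISAT2 2.2.1 and Trim Galore 0.6.6, with no role for any of them. How the authors made the FPKM is not given in these sources. From 55420 rows, 7 with 3 repeated IDs were left out. IDs were matched to GENCODE M21 (GRCm38; 99.74% of tested IDs) for coordinates, exon length and GC content, and promoter windows come from RefSeq (GRCm38.p6).

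Genes whose mean reached 1 FPKM in either group were tested on log2(FPKM + 1) with limma 3.58.1 in R 4.3.3 (mean-variance trend, two-sided, no covariates), with Benjamini-Hochberg adjustment over 12528 genes and a threshold of 0.05. Same-numbered replicates are not described as paired. Members and lists were chosen with earlier results of these data known, and motifs after sequences were seen. Named genes were the members, Fhl3, Yy1, the 4 of smallest p per list (given in part) and the 3 nearest patterns per called member. Genes named outside this rule, chosen after their values were seen, were Gabpb1, Atp5j, Prkaa1, Angptl4, Pdk4, Cox6c and the markers Alb, Adipoq, Plin1, Cebpa, Fabp4, Myl4, Nppb and Tnni3, besides Ldb1 and Trmt112, which overlap members. In data simulated for these 12528 genes, limma found 41.8% of 1.5-fold changes and 64.2% of 2-fold changes, and 5 of its 138 calls were false. Far fewer genes were changed in that simulation than were called here, and its noise was independent between genes. Its rates therefore need not hold for these data. Alternatives are in the closing section.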

Additional observations from a re-analysis of the deposited data

How the results depend on the processing

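Over 18 alternatives Gabpa kept its direction and call (log2 change -0.91 to -0.39, limma adjusted p 0.000589 to 0.0121), and Ppard lost its call under 1 (0.28 to 0.54, adjusted p 0.00342 to 0.0551). Members called higher numbered 1, but 2 with the exon length trend removed, with length and GC removed with or without a replicate block, and after quantile normalization, each adding Nrf1, and 0 with libraries scaled to the same sum. Members called lower numbered 1 throughout. The count of 5112 called genes was 2695 at a threshold of 0.01, and 3272 to 5273 with a library left out, lowest without WT replicate 2. That of the pathway lists, 62 genes, was 40 to 66 with a library left out, with 40 without WT replicate 2 and 41 without replicate 1 labelled FHL3-KO. Scaling to the same sum lowered the share of calls that were rises to 36.3%, from 48.2%. The cause of these differences was not tested. Deviations of same-numbered libraries from their group means correlated at -0.127, -0.0626 and 0.316, and those of differently numbered libraries at -0.376 to 0.368. With so few libraries these values neither show nor exclude a pairing. With the replicate block 4759 genes were called. With a library left out, the difference in family share was 0.551 to 1.17 points for Ppargc1a, 0.0233 to 0.194 for Esrrg, 9.74 to 13.8 for Ppard and -12.9 to -10.4 for Gabpa. Among the shares only that of Gabpa was corrected for length and GC (-10.7), since the other families hold an untested gene. Absolute depth is unknown, which limits Ppargc1a, Ppara and Esrrg most.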
